A study of Mus musculus with 24 samples.

Results

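The genes described here are 35 genes of the p53 pathway: Trp53, which encodes p53 itself, and 34 genes listed as its transcriptional targets. They were chosen by gene symbol from a named list. All 35 were found among the 55291 symbols of the deposited tables, and all 35 passed the filter on low values that left 18713 genes to test. The transcription factor p53 is kept scarce by the ubiquitin ligase Mdm2, which is itself a p53 target and so closes a feedback loop. When p53 is stabilised it raises genes that halt the cell cycle, start cell death, repair DNA or change metabolism, and the arrest gene Cdkn1a lowers cell cycle genes in turn through the DREAM repressor complex. Mouse embryonic stem cells are known to hold much p53 protein while progressing rapidly through the cell cycle.

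Total RNA was sequenced from E14Tg2a mouse embryonic stem cells of strain 129/Ola, all carrying an auxin-inducible degron on their own CTCF, a DNA-binding zinc finger protein of insulators and loop anchors. Indole-3-acetic acid (IAA, 500 µM) was given to remove that protein and doxycycline (1 µg/ml) to switch on a Ctcf transgene, both for 2 days. The 24 libraries form 12 groups of 2. The line with the wild-type transgene was left untreated (WT untreated), given IAA alone (WT IAA, CTCF removed and no transgene switched on), or given IAA and doxycycline (WT ID). Each of 9 lines with a substituted transgene, R339Q, R342C, S354F, K365T, R377C, R377H, Q418R, R448Q and H455R, was given IAA and doxycycline and is named below by its substitution. Every group thus carries the degron, and every group tested against WT ID below received IAA; the untreated cells did not. Each substitution is carried by 1 cell line of its own, so the effect of a substitution and other differences of its line cannot be told apart. Nothing in the labels says that the 2 replicates of a group came from separate cultures, and the spread behind the p-values may therefore be technical.

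Libraries held 27.8 to 77.1 M reads, with 1.22% to 3.38% of them mitochondrial. All 8 embryonic stem cell markers were detected in every library, with a summed level of 8183 to 10304 TPM (a depth-scaled transcript level per gene length). Ctcf RNA was read at 9973 and 10418 normalized counts in WT ID and at 9248 and 9112 in WT IAA, which does not check the removal, since the degron acts on the protein. It was highest in R448Q, at 20200 and 20661, and in H455R, at 16951 and 16751, and 8262 to 12255 in the other mutants. By TPM, group means of the 35 genes ran from 0.204 for Fas in its lowest group to 446 for Ccng1 in its highest. Bulk RNA cannot tell fewer cells expressing a gene from less RNA per cell.

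Because p53 acts through a defined DNA element, the promoter windows of the listed genes were searched for it. The element is a pair of adjacent p53 motifs, each of 10 letters. RefSeq promoter windows (GRCm38.p6, 250 bases before to 50 after a start site) were found for 27 of the 35 genes, 37 windows in all. A single p53 motif on either strand was found in 32.4% of these windows and in 8.36% of all 32851 promoter windows of the same length. A pair of them, at most 1 base apart and with at most 2 mismatches over its 20 letters, was found in 6 windows, 16.2% of those of the listed genes and 0.682% of all promoters. The single and paired matches overlap. The CTCF core motif of 12 letters was found in 1 window, of Bbc3, which is 2.7% of windows beside 0.557% of all promoters. A match describes letters only.

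The paired matches are shown with 15 bases on either side, on the strand of the gene and 5′ to 3′, with the match in capitals. They show how the letters differ between genes that behave differently in the data below. Single motifs of Mdm2 and Trp53, the centre of the feedback loop, follow in the same form. The Gtse1 match overlaps the start site and is shown without its surroundings. Coordinates are those of GRCm38.p6.
Cdkn1a, chr17:29090913-29090962, plus strand: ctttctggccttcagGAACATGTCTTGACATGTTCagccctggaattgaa
Ccng1, chr11:40755447-40755496, minus strand: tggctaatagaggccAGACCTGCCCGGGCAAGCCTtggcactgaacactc
Zfp365, chr10:67912691-67912740, minus strand: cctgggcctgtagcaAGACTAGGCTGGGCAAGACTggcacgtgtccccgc
Bax, chr7:45467064-45467114, minus strand: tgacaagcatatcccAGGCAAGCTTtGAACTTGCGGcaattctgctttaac
Ckap2, chr8:22185988-22186037, minus strand: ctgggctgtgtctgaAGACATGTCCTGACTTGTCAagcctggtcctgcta
Mdm2, chr10:117710920-117710959, minus strand: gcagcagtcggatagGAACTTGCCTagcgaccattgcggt
Trp53, chr11:69580269-69580308, plus strand: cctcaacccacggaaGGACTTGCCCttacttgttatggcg
Gtse1, chr15:85859945-85859964, plus strand, match only: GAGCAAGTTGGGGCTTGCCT

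The Cdkn1a match begins at position −51 from the start site of its upstream window, with 1 mismatch. Another Cdkn1a window, chr17:29093519-29093818, held no match. The Ccng1 match begins at −195, also with 1 mismatch. The Zfp365 match begins at −63 with 2 mismatches. Those of Ckap2 and Gtse1 begin at −203 and −1, with 2 and 1 mismatches. Another Gtse1 window, chr15:85859457-85859756, held no match. The Bax match has 2 mismatches and 1 base between its motifs. To give the context of the match, the 250 bases before the start site are printed for Cdkn1a (chr17:29090729-29090978, plus strand), Ccng1 (chr11:40755287-40755536, minus strand) and Zfp365 (chr10:67912663-67912912, minus strand).
Cdkn1a upstream: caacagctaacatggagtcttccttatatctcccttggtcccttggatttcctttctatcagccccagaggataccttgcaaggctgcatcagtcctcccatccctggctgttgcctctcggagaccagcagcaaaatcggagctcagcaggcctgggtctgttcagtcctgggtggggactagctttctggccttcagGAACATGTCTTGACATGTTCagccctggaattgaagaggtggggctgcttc
Ccng1 upstream: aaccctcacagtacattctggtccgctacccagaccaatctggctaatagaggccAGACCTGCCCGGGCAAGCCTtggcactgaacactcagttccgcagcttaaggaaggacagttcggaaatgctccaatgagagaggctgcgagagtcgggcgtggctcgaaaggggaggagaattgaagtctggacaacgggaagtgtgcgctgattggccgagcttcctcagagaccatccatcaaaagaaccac
Zfp365 upstream: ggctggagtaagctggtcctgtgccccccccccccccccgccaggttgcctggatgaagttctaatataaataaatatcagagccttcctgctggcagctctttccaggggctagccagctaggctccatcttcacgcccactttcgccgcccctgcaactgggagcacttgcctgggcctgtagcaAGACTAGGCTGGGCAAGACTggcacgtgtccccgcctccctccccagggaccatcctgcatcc

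The first question was how these genes stand without CTCF, or with a substituted CTCF, relative to the wild-type transgene. More of them rose than fell in WT IAA and in 8 of the 9 mutants, though in R377H only by 6 to 5. In R448Q most of those that passed the test fell. Each comparison used limma on log2(normalized count + 1) over all 22 treated libraries, with Benjamini-Hochberg adjustment over the 18713 genes and a threshold of 0.05. The 10 comparisons share the WT ID libraries, so they are given side by side. In WT IAA 20 of the 35 rose and 2 fell, where 20.7% of all genes were called (9.96% higher, 10.7% lower). R339Q had 18 that rose and 2 that fell (21.5% of all genes, 11.8% higher and 9.7% lower). R342C had 20 and 1 (23.3%, 10% higher and 13.3% lower), and S354F 12 and 1 (9.8%, 5.49% higher and 4.31% lower). K365T had 11 and 2 (32% of all genes, 17.7% higher and 14.2% lower), and Q418R 11 and 2 (25%, 11.2% higher and 13.8% lower). R377C had 5 and 0 (8.09%, 4.67% higher and 3.43% lower), and H455R 4 and 1 (23.1%, 12.6% higher and 10.5% lower). In R377H 6 rose and 5 fell (25.1% of all genes, 14.4% higher and 10.7% lower). In R448Q 3 rose and 17 fell, where 45.8% of all genes were called (22.8% higher, 23.1% lower). As shares of the 35 genes these were 62.9% in WT IAA, 57.1% in R339Q, 60% in R342C and 37.1% in S354F, each above its background. K365T and Q418R, at 37.1%, R377H, at 31.4%, and R377C, at 14.3%, were nearer to theirs, and H455R, at 14.3%, was below it. In R448Q the share was 57.1%.

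**Figure D1:**
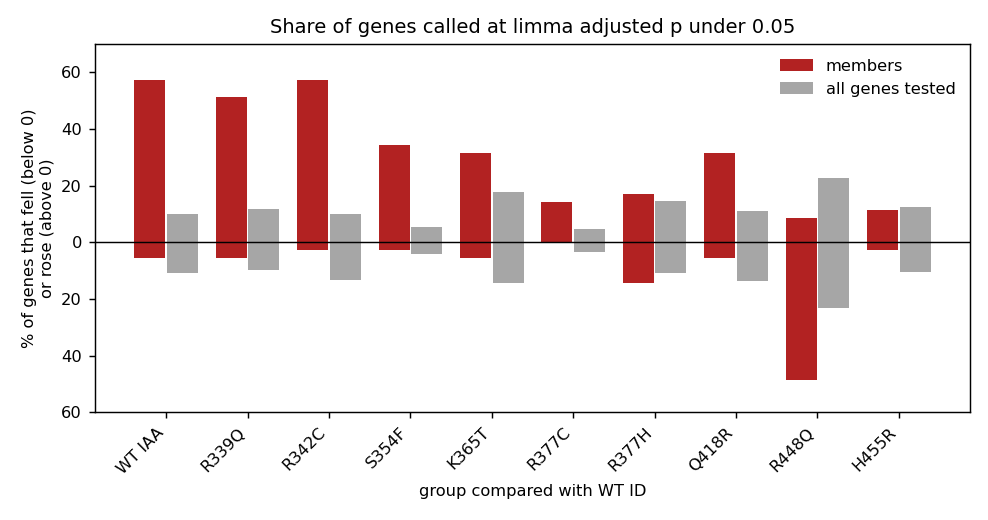
Share of genes that rose (bars above 0) or fell (bars below 0) against WT ID at a limma adjusted p under 0.05, in percent, for the 35 p53 pathway genes (red) and for all 18713 genes tested (grey). The red bars reach furthest upward in WT IAA and R342C, with 20 of 35 genes each, and furthest downward in R448Q, with 17.

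The median log2 fold change of the 35 genes was 0.37 in WT IAA, 0.39 in R339Q, 0.36 in R342C and 0.24 in S354F. It was 0.12 in K365T, 0.15 in Q418R, 0.13 in R377C, 0.01 in R377H, 0.02 in H455R and −0.21 in R448Q, while the median of all genes lay between −0.03 and 0.01. Over the 10 comparisons 28 of the 35 genes rose in at least 1 and 20 fell in at least 1, and 15 did both. Ei24 (an endoplasmic reticulum protein) and Triap1 (a mitochondrial lipid carrier subunit) were not called in any of the 10. On the TPM scale the split moved to 7 rising and 4 falling in K365T and in Q418R, and to 1 and 20 in R448Q, where the median of all genes shifted to −0.17. In R377H it turned to 6 rising and 7 falling there, with a median of −0.08 beside −0.09 for all genes. The counts also rested on single libraries, as did the split into rises and falls. In K365T the split was nearly even without K365T replicate 2. In R377H most calls were rises without R377H replicate 1 or WT ID replicate 1. Without replicate 2 of WT ID 12 genes were called in WT IAA, 8 in R342C, 6 in S354F, 8 in K365T, 2 in R377C, 7 in Q418R and 3 in H455R. Without replicate 1 of WT ID 6 were called in R377H and 13 in R448Q. Leaving out a library of the compared group gave 12 in WT IAA (without its replicate 2), 13 in R339Q (replicate 1) and 13 in R342C (replicate 2). It gave 7 and 5 in S354F (replicates 1 and 2), 1 in R377C (replicate 2), 7 in Q418R (replicate 2) and 3 in H455R (replicate 1). These fits called fewer of all genes too, but in R342C without its replicate 2 the number of all genes called was only a little lower. The lower count of the 35 genes there was thus not matched among all genes. Without replicate 2 of WT ID all genes called numbered 2028 in place of 3868 in WT IAA, 2003 in place of 4365 in R342C and 863 in place of 1834 in S354F. In the same fit they numbered 4098 in place of 5979 in K365T, 729 in place of 1514 in R377C, 3039 in place of 4677 in Q418R and 2723 in place of 4322 in H455R. Calls of the 35 genes named below passed in every fit with 1 library left out unless the text gives those that ended.

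**Figure D2:**
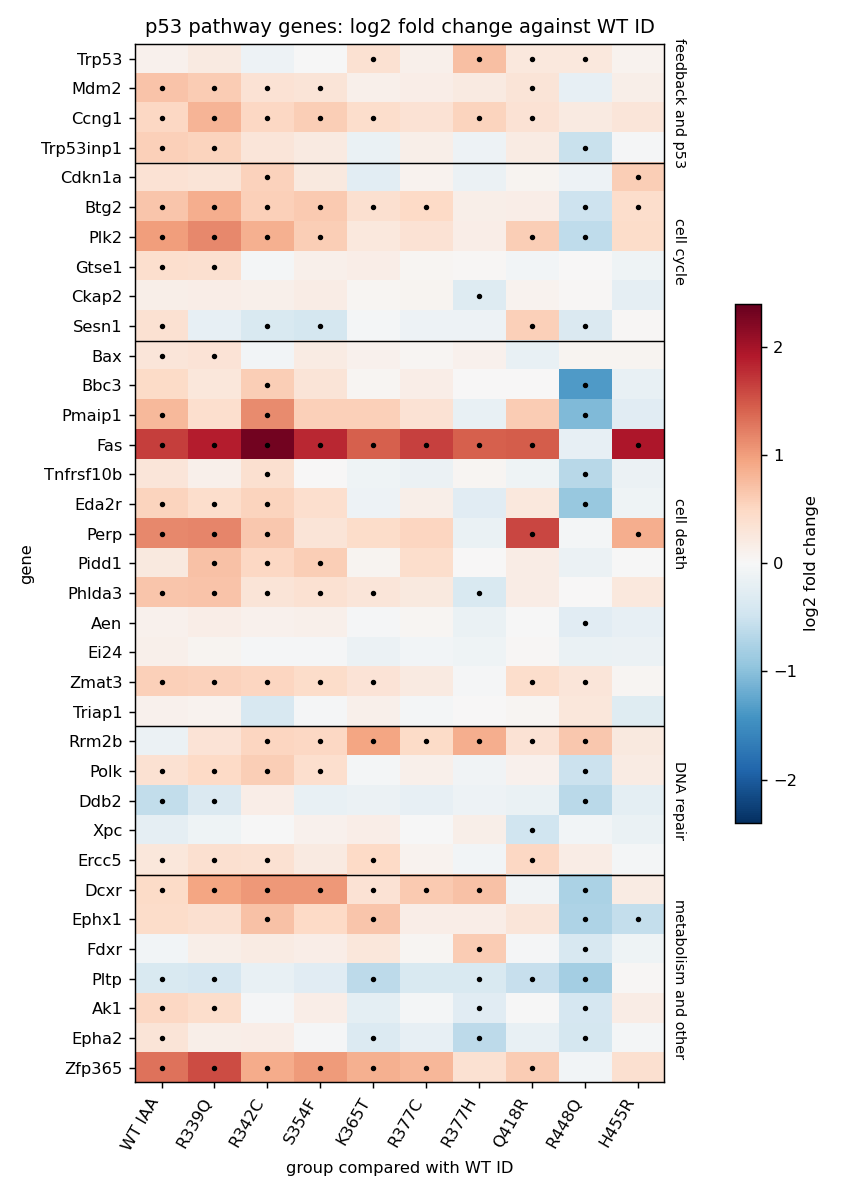
Log2 fold change against WT ID of each of the 35 genes (rows, grouped by role) in the 10 groups (columns) on a colour scale from blue (lower) to red (higher), with dots on calls at a limma adjusted p under 0.05. Fas is the darkest red row and R448Q the column with most blue cells, led by Bbc3 at −1.35.

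Among the genes of the feedback loop, Mdm2 and Ccng1 rose in several groups while Trp53 followed a different order. In normalized counts, Trp53 was read at 10166 and 10192 in WT ID and 10636 and 11308 in WT IAA. It stood at 12182 and 11329 in R339Q, 10264 and 8454 in R342C, 10225 and 10083 in S354F, 13369 and 12903 in K365T and 11559 and 10700 in R377C, and at 10926 and 10622 in H455R, 16569 and 17156 in R377H, 11820 and 12359 in Q418R and 12528 and 11739 in R448Q. Both R377H libraries were above every other library, and R342C and S354F were the groups that overlapped WT ID. Trp53 rose in R377H (0.73 ± 0.08, adjusted p = 8.34e-07) and in K365T (0.37 ± 0.08, adjusted p = 0.00112). It also passed in Q418R (0.25) and R448Q (0.25), calls that ended in Q418R without any 1 of the 4 libraries (adjusted p up to 0.123) and in R448Q without WT ID replicate 1 or R448Q replicate 1 (adjusted p up to 0.106). In WT IAA, where 20 of the 35 genes rose, Trp53 did not pass (0.11 ± 0.08, adjusted p = 0.367).

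Trp53 lies on chromosome 11 (mm10, chr11:69580359-69591873), and in 3 of the 4 groups where it passed the median of that chromosome was also raised. The median log2 fold change of the 1375 tested genes of chromosome 11 was 0.54 in R377H, 0.38 in K365T and 0.15 in R448Q, and −0.01 in Q418R. This and every chromosome median below is given after subtracting the median of all genes tested in the same comparison. With each gene set against the running median of its neighbouring genes on the chromosome, Trp53 stood at 0.24 in R377H (limma adjusted p = 0.0329), −0.01 in K365T (adjusted p = 0.94), 0.37 in R448Q (adjusted p = 0.000879) and 0.29 in Q418R (adjusted p = 0.0127). The part of whole-chromosome shifts in the results was not tested beyond this centring. 

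**Figure D3:**
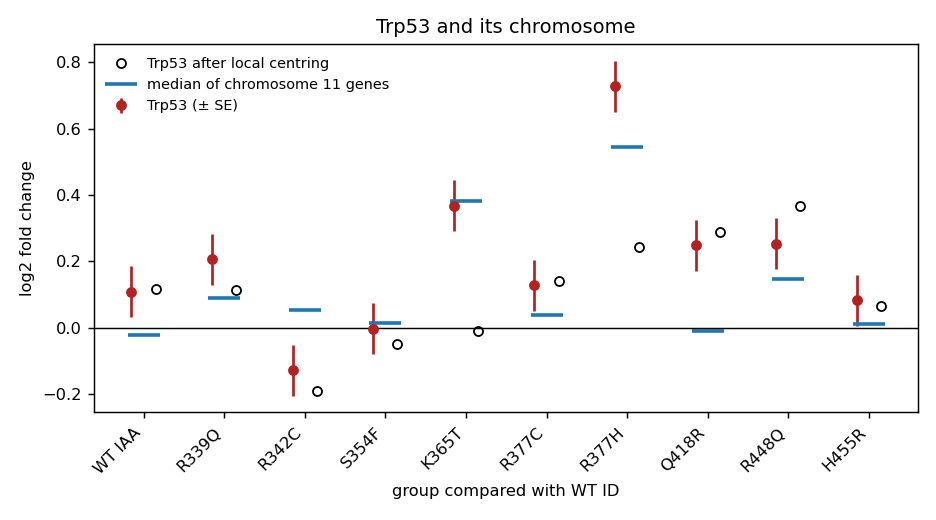
Log2 fold change of Trp53 against WT ID (red, ± SE), the median of all tested chromosome 11 genes (blue bars) and Trp53 after local centring (open circles) in each of the 10 groups. The median of all genes tested is subtracted from the blue bars only. In K365T the red point sits on the chromosome's median and the centred value is near 0, while in Q418R the chromosome's median is near 0.

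Mdm2, the ligase that marks p53 for degradation, was read at 6381 and 5949 in WT ID and 9390 and 10438 in WT IAA. It stood at 9931 and 8850 in R339Q, 7031 and 8757 in R342C, 7259 and 7979 in S354F, 6216 and 7140 in K365T and 6857 and 6990 in R377C, and at 6845 and 6788 in H455R, 6992 and 7230 in R377H, 7612 and 7740 in Q418R and 5313 and 5377 in R448Q. WT IAA and R339Q were highest and R448Q was the only treated group with both libraries under both of WT ID. Mdm2 rose in WT IAA (0.68 ± 0.09, adjusted p = 4.32e-05) and R339Q (0.61 ± 0.09, adjusted p = 9.02e-05), and passed in R342C (0.35), S354F (0.30) and Q418R (0.32). Those 3 calls ended in R342C without WT ID replicate 2 or R342C replicate 2 (adjusted p up to 0.154), in S354F without any 1 of the 4 libraries (adjusted p up to 0.254) and in Q418R without WT ID replicate 2, Q418R replicate 1 or Q418R replicate 2 (adjusted p up to 0.125). In R448Q Mdm2 did not pass (−0.21 ± 0.09, adjusted p = 0.0743).

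Ccng1 encodes cyclin G1, which acts with Mdm2 in damping p53, and was read at 11888 and 11244 in WT ID and 15374 and 17513 in WT IAA. The mutants stood at 22881 and 18326 in R339Q, 14507 and 18339 in R342C, 17634 and 17152 in S354F, 13886 and 17070 in K365T and 14688 and 14818 in R377C, and at 14511 and 13663 in H455R, 15907 and 17707 in R377H, 14015 and 15615 in Q418R and 13845 and 12866 in R448Q. Every other treated library lay above both WT ID libraries. It rose in 7 of the 10 comparisons, most in R339Q (0.82 ± 0.12, adjusted p = 4.55e-05), S354F (0.59 ± 0.12, adjusted p = 0.00251) and R377H (0.54 ± 0.12, adjusted p = 0.00175). Ccng1 is also on chromosome 11, and after local centring its R377H value was 0.04 (limma adjusted p = 0.858). The other 4 calls ended in WT IAA without WT IAA replicate 2 (adjusted p up to 0.0766), in R342C without WT ID replicate 2 or R342C replicate 2 (adjusted p up to 0.0721), in K365T without WT ID replicate 2 or K365T replicate 2 (adjusted p up to 0.157) and in Q418R without WT ID replicate 1, WT ID replicate 2 or Q418R replicate 2 (adjusted p up to 0.187). Trp53inp1, a stress protein that assists p53, ranged over 9541 to 22491 normalized counts, rose in WT IAA (0.57 ± 0.11, adjusted p = 0.000828) and R339Q (0.53 ± 0.11, adjusted p = 0.0011) and fell in R448Q (−0.54 ± 0.11, adjusted p = 0.000287).

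**Figure D4:**
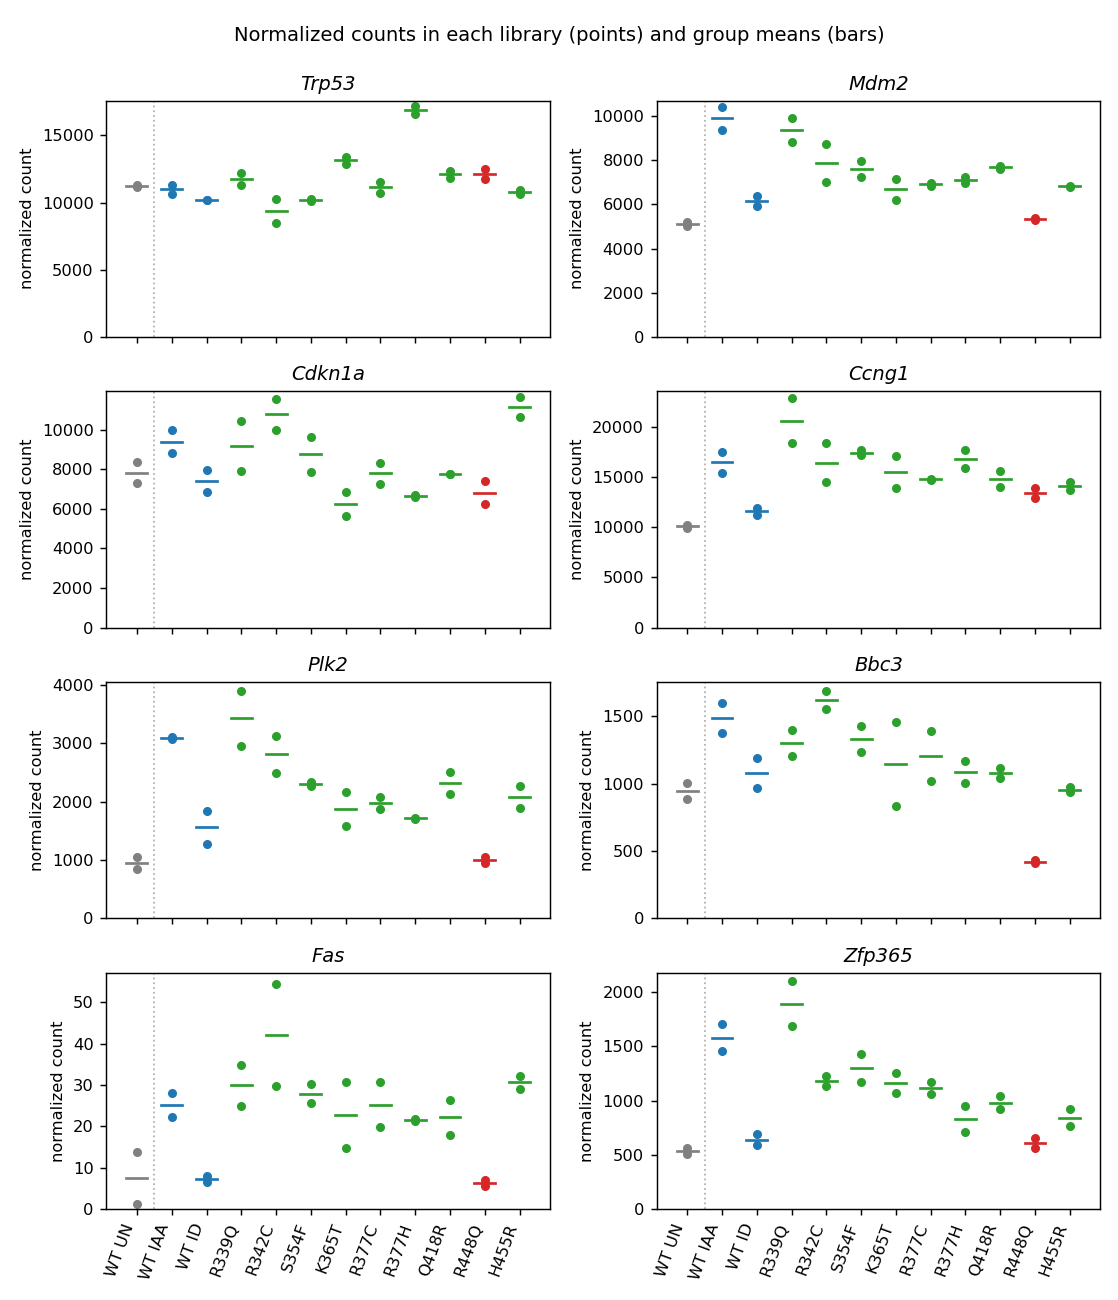
Normalized counts of 8 of the genes in every library (points) with group means (bars), on linear axes that start at 0. WT untreated (grey, left of the dotted line) comes from a table scaled separately; R448Q is in red, other mutants green and treated WT blue. The R448Q points for Bbc3 lie below those of every other group.

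Of the 6 cell cycle genes, 4 rose in WT IAA and 3 each in R339Q and R342C. In R448Q 3 fell, and 1 each fell in R342C, S354F and R377H. Cdkn1a, which encodes the cyclin-dependent kinase inhibitor p21, was read at 7956 and 6832 in WT ID and 8839 and 9976 in WT IAA. It stood at 10445 and 7939 in R339Q, 11558 and 10010 in R342C, 9649 and 7884 in S354F, 5626 and 6850 in K365T and 7254 and 8334 in R377C, and at 11652 and 10642 in H455R, 6621 and 6702 in R377H, 7766 and 7764 in Q418R and 7393 and 6256 in R448Q. H455R and R342C had the highest means, followed by WT IAA, whose libraries also lay above both of WT ID, and K365T had the lowest. Cdkn1a rose in H455R (0.59 ± 0.13, adjusted p = 0.00244) and in R342C (0.54 ± 0.13, adjusted p = 0.00571). The R342C call ended without WT ID replicate 2 or R342C replicate 1 (adjusted p up to 0.0868). In WT IAA it did not pass (0.35 ± 0.13, adjusted p = 0.0662). Cdkn1a overlaps the annotated gene AC167363.2 on the other strand, and whether counting used strand is not given in the sources used here, so its values carry that uncertainty.

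Plk2, a polo-like kinase, was read at 1845 and 1281 in WT ID and 3117 and 3083 in WT IAA. The mutants stood at 3903 and 2962 in R339Q, 2499 and 3123 in R342C, 2334 and 2276 in S354F, 1574 and 2158 in K365T and 1868 and 2072 in R377C, and at 2269 and 1896 in H455R, 1699 and 1728 in R377H, 2125 and 2501 in Q418R and 1058 and 955 in R448Q. R339Q and WT IAA were highest and both R448Q libraries were under both of WT ID. Plk2 rose in R339Q (1.14 ± 0.16, adjusted p = 5.52e-05), WT IAA (1.01 ± 0.16, adjusted p = 0.000274) and R342C (0.86 ± 0.16, adjusted p = 0.00114). It passed upward in S354F and Q418R (0.58 and 0.58) and downward in R448Q (−0.61). Those calls ended in S354F without WT ID replicate 2, S354F replicate 1 or S354F replicate 2 (adjusted p up to 0.394), in Q418R without WT ID replicate 2 or Q418R replicate 2 (adjusted p up to 0.25) and in R448Q without WT ID replicate 1 (adjusted p up to 0.14).

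Btg2, an antiproliferative protein that speeds mRNA deadenylation, was read at 2235 and 1698 in WT ID and 3164 and 3031 in WT IAA. It stood at 4110 and 3098 in R339Q, 2824 and 2933 in R342C, 3050 and 3011 in S354F, 2211 and 2931 in K365T and 2571 and 2867 in R377C, and at 2633 and 2564 in H455R, 2061 and 2247 in R377H, 2055 and 2278 in Q418R and 1497 and 1289 in R448Q. R339Q was highest, and the R448Q libraries were below all others. Btg2 rose in 7 comparisons and fell in R448Q (−0.49). The R339Q call (0.87 ± 0.14, adjusted p = 0.000135) passed in every fit with 1 library left out. The others ended in WT IAA without WT ID replicate 2 (adjusted p up to 0.0562), in R342C without WT ID replicate 2 (adjusted p up to 0.135), in S354F without WT ID replicate 2 (adjusted p up to 0.118) and in K365T without WT ID replicate 2 or K365T replicate 2 (adjusted p up to 0.421). The calls in 3 more groups ended in R377C without WT ID replicate 2, R377C replicate 1 or R377C replicate 2 (adjusted p up to 0.408), in R448Q without WT ID replicate 1 or R448Q replicate 2 (adjusted p up to 0.158) and in H455R without WT ID replicate 2, H455R replicate 1 or H455R replicate 2 (adjusted p up to 0.408). Btg2 is on chromosome 1, whose median was 0.47 in R448Q and 0.27 in K365T, and after local centring Btg2 stood at −0.96 in R448Q (limma adjusted p = 3.5e-05) and 0.11 in K365T (adjusted p = 0.605).

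Sesn1 encodes a sestrin that restrains mTOR signalling and changed in both directions. It was read at 1192 and 1065 in WT ID and 1550 and 1377 in WT IAA. It stood at 977 and 981 in R339Q, 782 and 973 in R342C, 853 and 834 in S354F, 1223 and 973 in K365T and 1096 and 974 in R377C, and at 1152 and 1133 in H455R, 1058 and 1003 in R377H, 1704 and 1663 in Q418R and 866 and 915 in R448Q. The Q418R libraries were above all others, and S354F had the lowest mean. Sesn1 rose in Q418R (0.58 ± 0.11, adjusted p = 0.000674) and passed upward in WT IAA (0.37). It passed downward in R342C (−0.37), S354F (−0.42) and R448Q (−0.34). The last 4 calls ended in WT IAA without WT IAA replicate 1 or WT ID replicate 2 (adjusted p up to 0.187), in R342C without WT ID replicate 1 or R342C replicate 1 (adjusted p up to 0.279), in S354F without WT ID replicate 1, S354F replicate 1 or S354F replicate 2 (adjusted p up to 0.203) and in R448Q without WT ID replicate 1 or R448Q replicate 1 (adjusted p up to 0.157). Gtse1, a microtubule protein that moves p53 out of the nucleus, ranged over 6688 to 10380 and rose in WT IAA (0.40) and R339Q (0.39). The spindle protein gene Ckap2 ranged over 3425 to 5271 and fell in R377H (−0.30), a call that ended without WT ID replicate 1 or R377H replicate 1 (adjusted p up to 0.0791).

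Of the 13 cell death genes, 9 rose in R342C, 7 each in WT IAA and R339Q and 4 in S354F, with none falling in those 4 groups. In R448Q 5 fell and 1 rose. Bbc3 encodes PUMA, a BH3-only protein that triggers mitochondrial cell death. It was read at 1191 and 967 in WT ID and 1375 and 1598 in WT IAA. It stood at 1400 and 1204 in R339Q, 1556 and 1692 in R342C, 1237 and 1426 in S354F, 832 and 1459 in K365T and 1020 and 1392 in R377C, and at 935 and 974 in H455R, 1005 and 1169 in R377H, 1045 and 1114 in Q418R and 407 and 431 in R448Q. The R448Q libraries were below every other library. Bbc3 fell in R448Q (−1.35 ± 0.19, adjusted p = 6.35e-06) and passed upward in R342C (0.60 ± 0.19, adjusted p = 0.0259). The latter call ended without WT ID replicate 2, R342C replicate 1 or R342C replicate 2 (adjusted p up to 0.221).

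Pmaip1 encodes Noxa, another BH3-only protein, and was read at 395 and 227 in WT ID and 479 and 547 in WT IAA. It stood at 411 and 385 in R339Q, 592 and 727 in R342C, 413 and 477 in S354F, 375 and 525 in K365T and 320.5 and 453 in R377C, and at 254 and 239 in H455R, 243 and 291 in R377H, 404 and 522 in Q418R and 162 and 125 in R448Q. R342C was highest and R448Q lowest, each with no overlap with WT ID. Pmaip1 fell in R448Q (−1.07 ± 0.23, adjusted p = 0.000733). It passed upward in R342C (1.13 ± 0.23, adjusted p = 0.00172) and WT IAA (0.77 ± 0.23, adjusted p = 0.0219), calls that ended in R342C without WT ID replicate 2 (adjusted p up to 0.0566) and in WT IAA without WT IAA replicate 1, WT IAA replicate 2 or WT ID replicate 2 (adjusted p up to 0.364). Bax, the pore-forming protein on which BH3-only proteins act, ranged over 3035 to 4756. It passed upward in WT IAA (0.29) and R339Q (0.33), calls that ended in WT IAA without any 1 of the 4 libraries (adjusted p up to 0.251) and in R339Q without WT ID replicate 1, WT ID replicate 2 or R339Q replicate 1 (adjusted p up to 0.219).

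Fas, a death receptor, was called most often, in 9 of the 10 comparisons, and had the lowest TPM of the 35. In normalized counts it was read at 6.58 and 8.02 in WT ID and 22.3 and 28.1 in WT IAA. It stood at 34.9 and 25 in R339Q, 29.8 and 54.5 in R342C, 30.1 and 25.7 in S354F, 14.7 and 30.6 in K365T and 19.8 and 30.7 in R377C, and at 32.2 and 29.1 in H455R, 21.2 and 21.7 in R377H, 26.4 and 17.9 in Q418R and 7.06 and 5.54 in R448Q. R448Q was the only group whose libraries did not both exceed those of WT ID. Fas rose in R342C (2.32 ± 0.39, adjusted p = 0.000367), H455R (1.93 ± 0.39, adjusted p = 0.00114) and R339Q (1.88 ± 0.39, adjusted p = 0.00156). It passed in 6 more groups, with log2 fold changes of 1.43 to 1.80. Those calls ended in WT IAA without WT IAA replicate 2 (adjusted p up to 0.0593), in S354F without WT ID replicate 1 (adjusted p up to 0.0536) and in K365T without WT ID replicate 1 or K365T replicate 2 (adjusted p up to 0.141). The rest ended in R377C without WT ID replicate 1 or R377C replicate 2 (adjusted p up to 0.156), in R377H without WT ID replicate 1 or R377H replicate 2 (adjusted p up to 0.0723) and in Q418R without WT ID replicate 1 or Q418R replicate 1 (adjusted p up to 0.0974). In R448Q Fas did not pass (−0.19 ± 0.39, adjusted p = 0.729). At these low counts the log2(count + 1) scale understates the fold.

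Perp, a membrane protein of desmosomes and cell death, was read at 181 and 120.3 in WT ID and 294 and 369.6 in WT IAA. It stood at 371 and 299.6 in R339Q, 202 and 262 in R342C, 179 and 189 in S354F, 193 and 208 in K365T and 222 and 201.5 in R377C, and at 305 and 242 in H455R, 125 and 139 in R377H, 435 and 465 in Q418R and 147 and 139.5 in R448Q. Q418R was highest, and R377H and R448Q stayed within the WT ID range. Perp rose in Q418R (1.60 ± 0.19, adjusted p = 4.56e-06), R339Q (1.17 ± 0.19, adjusted p = 0.000191) and WT IAA (1.16 ± 0.19, adjusted p = 0.00031). It passed in H455R (0.88) and R342C (0.64), calls that ended in H455R without WT ID replicate 2 (adjusted p up to 0.068) and in R342C without WT ID replicate 2 or R342C replicate 2 (adjusted p up to 0.31).

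Phlda3, a small lipid-binding protein that opposes Akt, was read at 1783 and 1710 in WT ID and 2617 and 2906 in WT IAA. It stood at 3005 and 2654 in R339Q, 2026 and 2298 in R342C, 2226 and 2273 in S354F, 1954 and 2320 in K365T and 1936 and 2161 in R377C, and at 2105 and 2072 in H455R, 1264 and 1439 in R377H, 1825 and 2147 in Q418R and 1730 and 1772 in R448Q. R377H lay below WT ID, and R448Q overlapped it. Phlda3 rose in R339Q (0.69 ± 0.10, adjusted p = 6.44e-05) and WT IAA (0.66 ± 0.10, adjusted p = 0.000159). It passed upward in R342C, S354F and K365T (0.31, 0.37 and 0.29) and downward in R377H (−0.37). Those calls ended in R342C without WT ID replicate 1, WT ID replicate 2 or R342C replicate 2 (adjusted p up to 0.223), in S354F without any 1 of the 4 libraries (adjusted p up to 0.158), in K365T without WT ID replicate 1, WT ID replicate 2 or K365T replicate 2 (adjusted p up to 0.343) and in R377H without WT ID replicate 1 or R377H replicate 1 (adjusted p up to 0.123).

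Zmat3, an RNA-binding splicing regulator, was read at 6232 and 5952 in WT ID and 8479 and 9557 in WT IAA. It stood at 9764 and 8238 in R339Q, 8640 and 8735 in R342C, 8021 and 8559 in S354F, 7041 and 8351 in K365T and 6752 and 7352 in R377C, and at 6239 and 6300 in H455R, 5521 and 6442 in R377H, 8087 and 8312 in Q418R and 7961 and 6896 in R448Q. WT IAA and R339Q had the highest means, and R377H and WT ID the lowest. Zmat3 rose in WT IAA (0.56 ± 0.10, adjusted p = 0.000497), R339Q (0.56), R342C (0.51) and Q418R (0.43). It passed in S354F (0.44), K365T (0.33) and R448Q (0.28), calls that ended in S354F without WT ID replicate 2 or S354F replicate 2 (adjusted p up to 0.0653), in K365T without WT ID replicate 2 or K365T replicate 2 (adjusted p up to 0.19) and in R448Q without WT ID replicate 1, WT ID replicate 2 or R448Q replicate 1 (adjusted p up to 0.255). Chromosome 3, where it lies, had a median of 0.45 in R448Q, and local centring turned the R448Q value to −0.23 (limma adjusted p = 0.0485).

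The remaining cell death genes were called in 0 to 4 of the 10 comparisons. Eda2r, a receptor of the tumour necrosis factor family, ranged over 1082 to 3403 and fell in R448Q (−0.92 ± 0.13, adjusted p = 1.15e-05). The TRAIL receptor gene Tnfrsf10b ranged over 1603 to 3464 and fell in R448Q as well (−0.67 ± 0.10, adjusted p = 1.99e-05). Eda2r also passed upward in WT IAA, R339Q and R342C and Tnfrsf10b in R342C, calls that ended when 1 library was left out. For Eda2r they ended in WT IAA without WT IAA replicate 2 or WT ID replicate 2 (adjusted p up to 0.14), in R339Q without WT ID replicate 2 or R339Q replicate 1 (adjusted p up to 0.369) and in R342C without WT ID replicate 2 or R342C replicate 2 (adjusted p up to 0.149), and for Tnfrsf10b in R342C without WT ID replicate 2 or R342C replicate 2 (adjusted p up to 0.205). Pidd1, a scaffold that activates caspases, rose in R339Q (0.70 ± 0.15, adjusted p = 0.00256), with further calls that ended in R342C without WT ID replicate 1, WT ID replicate 2 or R342C replicate 2 (adjusted p up to 0.131) and in S354F without any 1 of the 4 libraries (adjusted p up to 0.136). Aen, an apoptosis-associated nuclease, passed downward in R448Q (−0.27), a call that ended without WT ID replicate 1 or R448Q replicate 2 (adjusted p up to 0.132). Ei24, which overlaps Gm26787 on the other strand, ranged over 6621 to 8582 and Triap1 over 427 to 777.

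Of the 5 DNA repair genes, 3 rose in R342C and 2 each in WT IAA, R339Q, S354F, K365T and Q418R. In R377C, R377H and R448Q 1 rose. Those that fell were 1 each in WT IAA, R339Q and Q418R and 2 in R448Q. In WT IAA the median log2 fold change of the 5 was −0.13, where 9.96% of all genes rose and 10.7% fell. Rrm2b encodes the p53-induced subunit of ribonucleotide reductase, which supplies nucleotides for repair. It was read at 426 and 459 in WT ID and 429.8 and 378 in WT IAA. It stood at 566 and 548 in R339Q, 616 and 644 in R342C, 616 and 639 in S354F, 769.6 and 949 in K365T and 526 and 699 in R377C, and at 537 and 509 in H455R, 849 and 779 in R377H, 555 and 578 in Q418R and 689.7 and 697 in R448Q. Both libraries of each mutant lay above both of WT ID, while WT IAA overlapped them. Rrm2b rose in K365T (0.95 ± 0.12, adjusted p = 1.06e-05), R377H (0.88 ± 0.12, adjusted p = 2.26e-05) and R448Q (0.65 ± 0.12, adjusted p = 0.000229). It passed in R342C, S354F, R377C and Q418R (0.51, 0.50, 0.45 and 0.36). Those calls ended in R342C without WT ID replicate 1 (adjusted p up to 0.0571), in S354F without WT ID replicate 1, S354F replicate 1 or S354F replicate 2 (adjusted p up to 0.115), in R377C without WT ID replicate 1, WT ID replicate 2 or R377C replicate 2 (adjusted p up to 0.378) and in Q418R without any 1 of the 4 libraries (adjusted p up to 0.215). Rrm2b overlaps Gm49085 on the other strand.

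Polk, a polymerase that copies past damaged bases, was read at 1402 and 1229 in WT ID and 1702 and 1698 in WT IAA. It stood at 2002 and 1679 in R339Q, 1887 and 2097 in R342C, 1743 and 1748 in S354F, 1166 and 1372 in K365T and 1382 and 1460 in R377C, and at 1416 and 1611 in H455R, 1262 and 1230 in R377H, 1584 and 1266 in Q418R and 874 and 958 in R448Q. R342C was highest and both R448Q libraries were below all others. Polk rose in R342C (0.60 ± 0.11, adjusted p = 0.000982) and fell in R448Q (−0.52 ± 0.11, adjusted p = 0.000774). It passed upward in WT IAA, R339Q and S354F (0.37, 0.48 and 0.41), calls that ended in WT IAA without WT IAA replicate 1, WT IAA replicate 2 or WT ID replicate 2 (adjusted p up to 0.214), in R339Q without WT ID replicate 2 or R339Q replicate 1 (adjusted p up to 0.102) and in S354F without WT ID replicate 2, S354F replicate 1 or S354F replicate 2 (adjusted p up to 0.23). Polk overlaps Gm17622 on the other strand.

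Ercc5 encodes the XPG nuclease of nucleotide excision repair and was read at 1639 and 1478 in WT ID and 1816 and 1952 in WT IAA. It stood at 2196 and 1897 in R339Q, 1803 and 2216 in R342C, 1896 and 1730 in S354F, 2142 and 2190 in K365T and 1607 and 1712 in R377C, and at 1466 and 1554 in H455R, 1520 and 1451 in R377H, 2207 and 2179 in Q418R and 1839 and 1687 in R448Q. Q418R and K365T had the highest means. Ercc5 rose in K365T (0.48 ± 0.10, adjusted p = 0.000754) and Q418R (0.49 ± 0.10, adjusted p = 0.000701). Chromosome 1, which carries it, had medians of 0.27 and 0.24 in those groups, and after local centring Ercc5 stood at 0.11 (limma adjusted p = 0.417) and 0.21 (adjusted p = 0.128). It also passed in WT IAA, R339Q and R342C, calls that ended in WT IAA without any 1 of the 4 libraries (adjusted p up to 0.311), in R339Q without WT ID replicate 2 or R339Q replicate 1 (adjusted p up to 0.123) and in R342C without WT ID replicate 2 or R342C replicate 2 (adjusted p up to 0.145). The damage sensors Ddb2 and Xpc were called downward only. Ddb2 ranged over 436 to 810.3 and fell in R448Q (−0.64 ± 0.12, adjusted p = 0.000138) and WT IAA (−0.58 ± 0.12, adjusted p = 0.00139), with a further call that ended in R339Q without any 1 of the 4 libraries (adjusted p up to 0.248). Ddb2 overlaps Acp2 on the other strand. Xpc ranged over 1861 to 3089 and fell in Q418R (−0.47 ± 0.09, adjusted p = 0.00095), where the median of chromosome 6, which carries it, was −0.46. Its centred value there was 0.05 (limma adjusted p = 0.774).

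Of the 7 metabolic and other genes, 4 rose in WT IAA and 3 each in R339Q, R342C and K365T, while 6 of the 7 fell in R448Q. Falls elsewhere were 3 in R377H, 2 in K365T and 1 each in WT IAA, R339Q, Q418R and H455R. Zfp365, a zinc finger gene linked to genome stability, was read at 691 and 589.6 in WT ID and 1457 and 1703 in WT IAA. It stood at 2101 and 1686 in R339Q, 1134 and 1225 in R342C, 1168 and 1432 in S354F, 1069 and 1257 in K365T and 1060 and 1168 in R377C, and at 761 and 917 in H455R, 710.4 and 945 in R377H, 918 and 1045 in Q418R and 651 and 566 in R448Q. R448Q was the only treated group that overlapped WT ID. Zfp365 rose in R339Q (1.56 ± 0.15, adjusted p = 4.93e-07), WT IAA (1.30 ± 0.15, adjusted p = 9.18e-06) and S354F (1.02 ± 0.15, adjusted p = 0.000172). It rose in R342C, K365T and R377C by 0.88, 0.86 and 0.80, and these 6 calls passed in every fit with 1 library left out. A call in Q418R (0.62) ended without WT ID replicate 2 or Q418R replicate 2 (adjusted p up to 0.0707).

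Dcxr encodes a carbonyl reductase and was read at 768 and 674 in WT ID and 902 and 1084 in WT IAA. It stood at 1567 and 1235 in R339Q, 1526 and 1449 in R342C, 1561 and 1410 in S354F, 834 and 995 in K365T and 986 and 1241 in R377C, and at 819 and 821 in H455R, 1192 and 1138 in R377H, 691 and 660.5 in Q418R and 444 and 404 in R448Q. R342C, S354F and R339Q had the highest means, and both R448Q libraries were below all others. Dcxr rose in R342C (1.05 ± 0.13, adjusted p = 1.73e-05), S354F (1.04 ± 0.13, adjusted p = 2.28e-05) and R339Q (0.95 ± 0.13, adjusted p = 2.8e-05) and fell in R448Q (−0.76 ± 0.13, adjusted p = 6.16e-05). Dcxr is on chromosome 11, and its rise in R377H (0.69) stood at 0.16 after local centring (limma adjusted p = 0.35). The other calls ended in WT IAA without WT IAA replicate 2 or WT ID replicate 2 (adjusted p up to 0.203), in K365T without WT ID replicate 1, WT ID replicate 2 or K365T replicate 2 (adjusted p up to 0.341) and in R377C without WT ID replicate 2 or R377C replicate 2 (adjusted p up to 0.11).

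Pltp, a phospholipid transfer protein, was the one gene called 6 times and always downward. It was read at 3756 and 3873 in WT ID and 2857 and 3048 in WT IAA. It stood at 2909 and 2893 in R339Q, 3613 and 3115 in R342C, 3582 and 2768 in S354F, 2226 and 2702 in K365T and 3014 and 2932 in R377C, and at 4361 and 3480 in H455R, 3082 and 2852 in R377H, 2771 and 2419 in Q418R and 2240 and 2111 in R448Q. In every group except H455R both libraries lay below both of WT ID. Pltp fell in R448Q (−0.81 ± 0.12, adjusted p = 1.43e-05), K365T (−0.64 ± 0.12, adjusted p = 0.000428) and Q418R (−0.56 ± 0.12, adjusted p = 0.00173). The calls in 3 other groups ended in WT IAA without any 1 of the 4 libraries (adjusted p up to 0.171), in R339Q without any 1 of the 4 libraries (adjusted p up to 0.117) and in R377H without any 1 of the 4 libraries (adjusted p up to 0.188). Pltp overlaps Ctsa on the other strand.

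The other 4 genes of this group all passed downward in R448Q. Ephx1, which hydrolyses epoxides, ranged over 386 to 1262, fell in R448Q (−0.75 ± 0.16, adjusted p = 0.000828) and rose in K365T (0.67 ± 0.16, adjusted p = 0.00357). Its further calls ended in R342C without WT ID replicate 2 (adjusted p up to 0.0604) and in H455R without WT ID replicate 1 or H455R replicate 1 (adjusted p up to 0.294). The adenylate kinase gene Ak1 ranged over 2406 to 4902, rose in WT IAA (0.50 ± 0.09, adjusted p = 0.000849) and fell in R448Q (−0.40 ± 0.09, adjusted p = 0.00132), with calls that ended in R339Q without R339Q replicate 1 (adjusted p up to 0.113) and in R377H without WT ID replicate 1, WT ID replicate 2 or R377H replicate 1 (adjusted p up to 0.28). Epha2, an ephrin receptor kinase, ranged over 1482 to 2867 and fell in R377H (−0.62 ± 0.08, adjusted p = 5.89e-06) and R448Q (−0.41 ± 0.08, adjusted p = 0.000213). Its other calls ended in WT IAA without WT IAA replicate 2 or WT ID replicate 2 (adjusted p up to 0.0862) and in K365T without K365T replicate 1 (adjusted p up to 0.0612). Fdxr, the mitochondrial ferredoxin reductase, ranged over 897 to 1881, rose in R377H (0.62 ± 0.10, adjusted p = 0.000137) and passed downward in R448Q (−0.38), a call that ended without WT ID replicate 1 (adjusted p up to 0.0747). Fdxr is on chromosome 11, and its R377H value after local centring was 0.08 (adjusted p = 0.568).

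R448Q was then set directly against the mean of the other 8 mutants, a contrast chosen after the data had been seen, since the genes had passed mostly downward there. Of the 35 genes 25 were lower and 1 was higher, where 51.5% of all genes were called (25.7% in each direction). All 7 metabolic genes, 9 of the 13 cell death genes, 4 of the 6 cell cycle genes, 3 of the 4 feedback genes and 2 of the 5 repair genes were lower. The largest differences were in Fas (−1.93 ± 0.29, adjusted p = 1.39e-05), Bbc3 (−1.51 ± 0.14, adjusted p = 2.87e-08) and Pmaip1 (−1.47 ± 0.17, adjusted p = 6.32e-07). Dcxr (−1.36), Plk2 (−1.16), Eda2r (−1.07) and Ephx1 (−1.03) were each lower by more than 1 log2 unit. Mdm2 was lower too (−0.48 ± 0.07, adjusted p = 7.21e-06), while Trp53 did not pass (0.05 ± 0.06, adjusted p = 0.508). Triap1 alone was higher (0.34 ± 0.10, adjusted p = 0.00953), a call that ended without either R448Q library. Calls of Cdkn1a and Ccng1 ended without R448Q replicate 2, of Pidd1 without replicate 1, and of Sesn1 and Phlda3 without either. On the TPM scale 31 were lower and 0 higher, and there the median of all genes was −0.14. The median of the 35 was −0.45 beside 0.01 for all genes.

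**Figure D5:**
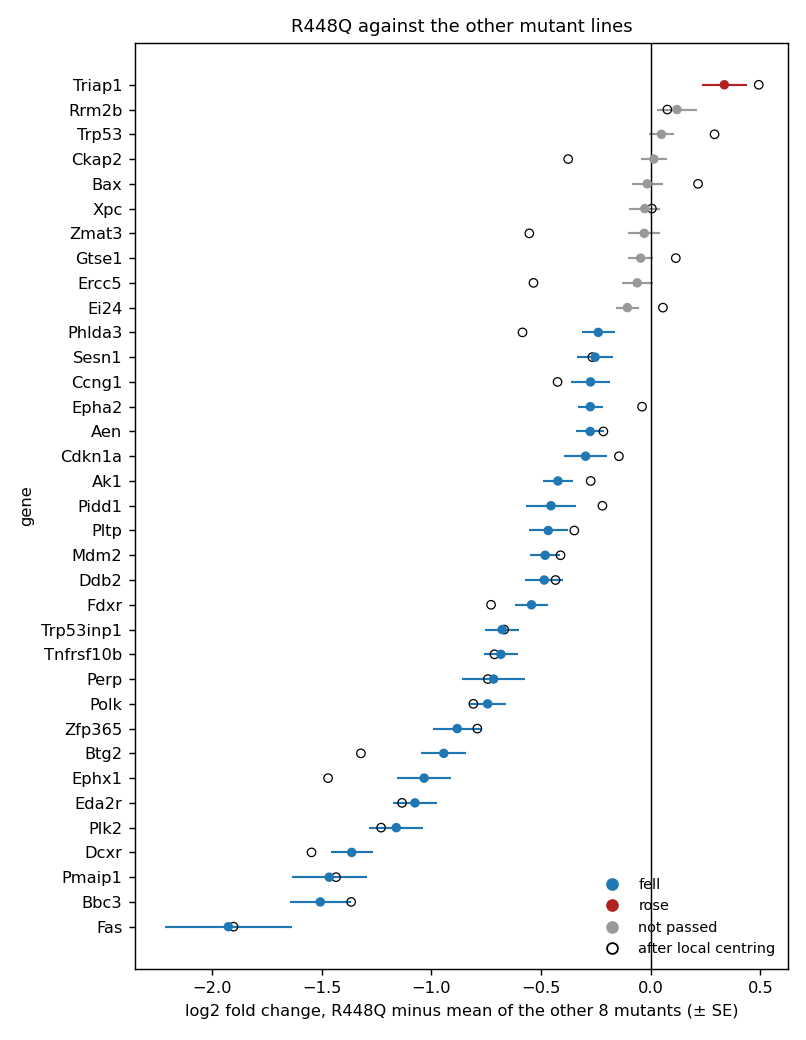
Log2 fold change of each of the 35 genes in R448Q against the mean of the other 8 mutants (filled points, ± SE; blue lower, red higher, grey not passed) and after local centring (open circles). Fas lies furthest left at −1.93, and Triap1 is the red point at 0.34.

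Other measures of R448Q also differed from those of WT ID. Its Ctcf RNA was the highest, as given above. Summed TPM of 7 fibroblast markers was 13.0 to 15.3 there and 23.8 to 25.6 in WT ID, with 0 to 1 of the 7 at 0 in each library. Only 3 of these 7 passed the filter on low values. The sum of 7 trophectoderm markers was 90.4 to 92.8 beside 123 to 139. Sums of mesendoderm and embryonic stem cell markers were also lower in R448Q, and those of primitive endoderm markers overlapped. Neural ectoderm markers went the other way, at 58.3 to 71.2 beside 51.5 to 52.1, as did the low sum of 2-cell-like markers. On the TPM scale the median log2 fold change of all genes in R448Q against WT ID was −0.17. Mitochondrial reads were 3.26% and 3.38% of the R448Q libraries, the highest of all, beside 1.62% and 1.92% in WT ID. Q418R replicate 1 followed at 3.23%. Medians of chromosomes 1, 3 and 8 were 0.47, 0.45 and 0.45 against WT ID. With local centring 17 of the 20 calls against WT ID and 23 of the 26 against the other mutants were kept. The part of Ctcf RNA, of the mitochondrial share and of these markers in the result was not tested.

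The mean of the 9 mutants was set against WT IAA, which does not show that each mutant differs from it. The median log2 fold change of the 35 genes against WT ID was 0.39 in R339Q, 0.36 in R342C and 0.37 in WT IAA. It was lower in the other mutants, down to −0.21 in R448Q. No single mutant was tested against WT IAA. Of the 35 genes 19 were lower in the mean of the mutants and 2 higher, where 36% of all genes were called (18.7% higher, 17.4% lower). Plk2 (−0.59 ± 0.12, adjusted p = 0.000842), Zfp365 (−0.59 ± 0.11, adjusted p = 0.000387), Epha2 (−0.47 ± 0.06, adjusted p = 3.97e-06), Mdm2 (−0.46 ± 0.07, adjusted p = 3.12e-05) and Phlda3 (−0.44 ± 0.08, adjusted p = 0.000137) were lower. Rrm2b (0.67 ± 0.09, adjusted p = 1.31e-05) and Ddb2 (0.38 ± 0.09, adjusted p = 0.00184) were higher. Trp53 (0.10 ± 0.06, adjusted p = 0.182) and Cdkn1a (−0.20 ± 0.10, adjusted p = 0.116) did not pass. WT IAA lacks doxycycline as well as a switched-on transgene, so these cannot be told apart. Without WT IAA replicate 2 the count was 13.

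The mutants also differed among themselves. A limma F test over the 9 mutants passed for 34 of the 35 genes, where 76% of all genes passed, and Ei24 did not (adjusted p = 0.0598). The mean of the highest group over that of the lowest, across the 11 treated groups, was 6.69 for Fas, 4.6 for Pmaip1, 3.87 for Bbc3, 3.51 for Dcxr, 3.41 for Plk2 and 3.41 for Perp.

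R377C and R377H carry different amino acids at the same position, and the lines were compared directly; the residue and other differences between the lines cannot be told apart. Of the 35 genes 6 were higher in R377C and 3 lower, where 19% of all genes were called (7.88% higher, 11.1% lower). Perp (0.68 ± 0.19, adjusted p = 0.0164), Phlda3 (0.60 ± 0.10, adjusted p = 0.000235), Zfp365 (0.44 ± 0.15, adjusted p = 0.0459) and Epha2 (0.42 ± 0.08, adjusted p = 0.000625) were higher in R377C, with Eda2r (0.41) and Ckap2 (0.38). Trp53 (−0.60 ± 0.08, adjusted p = 1.29e-05), Fdxr (−0.56 ± 0.10, adjusted p = 0.00051) and Rrm2b (−0.42 ± 0.12, adjusted p = 0.0198) were lower. Trp53 and Fdxr lie on chromosome 11, whose median in this comparison was −0.50, and after local centring they stood at −0.10 (adjusted p = 0.429) and −0.11 (adjusted p = 0.456). The split was 11 higher and 2 lower on the TPM scale, 11 and 3 with quantile normalization and 7 and 1 after centring, and the median of all genes shifted to 0.11 on the TPM scale. The call of Eda2r ended without any 1 of the 4 libraries and that of Zfp365 without R377C replicate 1 or 2 or R377H replicate 1 (adjusted p up to 0.178 and 0.403). The calls of Perp and Rrm2b ended without R377C replicate 1 or R377H replicate 1 or 2 (adjusted p up to 0.123 and 0.347), and without R377C replicate 1 the count was 5.

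Local centring ended calls in other groups too. After local centring K365T kept 4 of its 13 calls, R377H 7 of 11, Q418R 9 of 13 and S354F 11 of 13. WT IAA kept 21 of 22, R339Q 20 of 20, R342C 20 of 21, R377C 4 of 5 and H455R 4 of 5. The running median follows neighbouring genes, so a call lost after centring does not by itself show a shift of the whole chromosome. In S354F the chromosome medians ran only from −0.03 (chromosome 3) to 0.04 (chromosome 17). The cause of the lost calls was not tested. Besides the genes given above, K365T lost the calls of Ccng1 (0.07 after centring, limma adjusted p = 0.691), Dcxr (0.01, adjusted p = 0.971) and Phlda3, whose centred value was near 0 (adjusted p = 0.993). It also lost Zmat3 (0.17), Ephx1 (0.40) and Epha2 (−0.15). In R448Q the fall of Epha2 did not pass after centring (−0.09, adjusted p = 0.392). In R377H the split after centring was 3 rising and 4 falling. The median of chromosome 8 was 0.47 in H455R and 0.20 in K365T, and that of chromosome 16 was −0.17 in K365T.

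Untreated cells of the wild-type line were read from a table scaled separately, so they were compared with WT ID by TPM, with no test of the TPM values. None of the 35 genes was 2-fold apart with no overlap of libraries, a limit that 12.2% of all genes passed (2.01% higher, 10.2% lower in untreated cells). The median log2 TPM ratio of untreated to WT ID was −0.16 for the 35 genes and −0.19 for all genes. Without overlap 14 genes were lower in untreated cells, Plk2 most (−0.81), followed by Ei24 (−0.58), and 4 were higher, Epha2 (0.76) and Zmat3 (0.49) most. Of all 18713 genes 50.3% were lower and 19.9% higher by that measure, so neither count of the 35 genes was above the background. A fit of edgeR on recovered reads over all 24 libraries called 6 of the 35 higher and 6 lower in untreated cells, where it called 40.5% of all genes (19.5% higher, 21% lower). Without untreated replicate 1, 2 of the 35 were beyond the limit, and without WT ID replicate 2, 1 was.

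Other genes of the pathway, from lists that name no gene above, are given by counts. Of 29 further p53 targets tested, 8 rose and 2 fell in WT IAA, 12 and 1 did in R339Q, 6 and 11 did in K365T and 4 and 15 did in R448Q. The share called was 34.5%, 44.8%, 58.6% and 65.5% in these 4, beside 20.7%, 21.5%, 32% and 45.8% of all genes. In R342C 8 rose and 5 fell (44.8% beside 23.3%), and in R377H 5 and 6 did (37.9% beside 25.1%). S354F had 6 and 1 (24.1% beside 9.8%) and Q418R 6 and 3 (31% beside 25%). H455R had 5 and 2 (24.1% beside 23.1%) and R377C 3 and 1 (13.8% beside 8.09%). Among the further targets Ptprv, a receptor phosphatase, rose in 7 comparisons and fell in R448Q (−0.53), and Trp53cor1 (lincRNA-p21) rose in 8. Steap3, a metalloreductase, fell in 8, and Tap1, a peptide transporter, rose in 4 and fell in R448Q by 1.85 on the log2 scale. Of 25 p53 regulators 8 rose and 2 fell in R448Q, 9 rose and 4 fell in K365T, and 3 rose and 8 fell in R342C. The share called was 40% in R448Q, below the 45.8% of all genes, 52% in K365T beside 32% and 44% in R342C beside 23.3%. In WT IAA 4 rose and 1 fell (20% beside 20.7%), and in R339Q 2 and 3 did (20% beside 21.5%). S354F had 3 and 0 (12% beside 9.8%), R377H 6 and 1 (28% beside 25.1%) and Q418R 4 and 2 (24% beside 25%). H455R had 3 and 3 (24% beside 23.1%) and R377C 2 and 0 (8% beside 8.09%). Cdkn2a, whose ARF product blocks Mdm2, rose in 4 comparisons, by 1.71 in R448Q, 1.69 in K365T, 1.33 in R377H and 1.03 in H455R.

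Of 25 cell cycle genes listed as repressed through p21 and DREAM, 20 fell in H455R and 13 in R342C. Cdkn1a passed upward in these groups, and a link with these falls was not tested. In R339Q 7 fell, in WT IAA 6 fell and 1 rose, and in R448Q 8 rose and 8 fell. The share called was 80% in H455R and 52% in R342C, beside 23.1% and 23.3% of all genes. It was 28% in R339Q, 28% in WT IAA and 64% in R448Q, beside 21.5%, 20.7% and 45.8%. In K365T 6 rose and 3 fell (36% beside 32% of all genes), and in R377H 5 rose and 2 fell (28% beside 25.1%). In Q418R 3 fell (12% beside 25%), and 0 passed in S354F and in R377C (beside 9.8% and 8.09%). Ccnb2, a mitotic cyclin gene, fell in 5 comparisons, as did Ccnb1, and Ccna2 fell in 4 and rose in R448Q. Of 24 DNA damage repair genes 11 fell and 0 rose in WT IAA, 11 fell and 1 rose in H455R, and 12 rose and 2 fell in K365T. The share called was 45.8% in WT IAA, 50% in H455R and 58.3% in K365T, beside 20.7%, 23.1% and 32% of all genes. In R448Q 10 rose and 3 fell (54.2% beside 45.8%), and in R377H 9 and 2 did (45.8% beside 25.1%). Q418R had 7 and 3 (41.7% beside 25%) and R339Q 2 and 7 (37.5% beside 21.5%). R342C had 3 and 6 (37.5% beside 23.3%), S354F 3 and 2 (20.8% beside 9.8%) and R377C 3 and 1 (16.7% beside 8.09%). The mismatch repair gene Msh6 rose in 8 comparisons, and Brca2, a gene of homologous recombination, fell in all 10, by 0.36 to 0.80 on the log2 scale. All these comparisons share the WT ID libraries, and calls on the genes of these lists were not refitted with 1 library left out.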

How the data were processed

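Total RNA-seq of 24 libraries was read from deposited tables of normalized signal (gene counts divided by size factors) and of TPM. Per the submitters' processing notes, Trim Galore, STAR, DESeq2 and the mm10 genome were used, with no version, counter or strand rule named in the sources used here. Untreated libraries were scaled in tables of their own. Deposited normalized counts were whole multiples of the value of 1 read (tolerance 0.001) for 100% of values in each library, except WT ID replicate 2 with 99.998%, which gave the depths and the reads used for edgeR and DESeq2.

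The test was limma 3.58.1 (R 4.3.3, empirical Bayes with trend) on log2(normalized count + 1), over the 22 treated libraries in 11 groups and the 18713 genes with a mean of at least 10. P-values were two-sided and Benjamini-Hochberg adjusted over all genes within each comparison, with a threshold of 0.05, so fold changes are on the log2(value + 1) scale and understate low genes. Local centring subtracted the running median of neighbouring genes along each chromosome. Chromosome medians are given less the median of all genes tested in the same comparison. Alternatives were a pseudocount of 4, no filter, TPM (log2(TPM + 0.1)), quantile normalization, edgeR 4.0.16, DESeq2 1.42.0, a replicate block and leaving out each library. On simulated data of the R339Q comparison over 18713 genes, 56%, 66%, 84% and 90% of genes changed 1.5, 2, 3 and 4-fold were recovered, 50 genes at each size, with 9 false calls of 157.

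The genes and the further lists were chosen with earlier results of these data known, and the grouping by role was made for reading. Values in every library are given for Trp53, Cdkn1a and Mdm2, for genes called in at least 5 of the 10 comparisons against WT ID, and for the 2 with the largest absolute log2 fold change among those called in each. Other members are given by range and counts. From each further list at most 4 genes are named, those with the largest absolute median log2 fold change over the 10 comparisons among genes called in at least 3. Genes that differed between R377C and R377H are named. p53 motifs (with C and G fixed at their core positions) and the CTCF core were searched on both strands of RefSeq promoter windows.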

Additional observations from a re-analysis of the deposited data

Results flagged for a closer look

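R377C and R377H differed directly by limma in 9 of the 35 genes, and each is given here as R377C minus R377H on the log2 scale. Higher in R377C were Perp (0.68), Phlda3 (0.60), Zfp365 (0.44), Epha2 (0.42), Eda2r (0.41) and Ckap2 (0.38). Lower in R377C were Trp53 (−0.60), Fdxr (−0.56) and Rrm2b (−0.42). Trp53 and Fdxr lie on chromosome 11, whose median in the same comparison was −0.50, and neither passed after local centring.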

How the results depend on the processing

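With 1 library left out, the number of the 35 genes called against WT ID ran from 12 to 20 in WT IAA, 13 to 19 in R339Q, 8 to 21 in R342C, 5 to 9 in S354F and 8 to 16 in K365T. It ran from 3 to 5 in H455R, 1 to 4 in R377C, 6 to 10 in R377H, 7 to 10 in Q418R and 13 to 19 in R448Q. It was 5 to 7 between R377C and R377H, 13 to 25 for the mean of the mutants against WT IAA, 21 to 27 for R448Q against the other mutants, 34 to 35 for the F test and 0 to 2 for untreated cells. Local centring gave 4 calls in K365T in place of 13 and 7 in R377H in place of 11. In R448Q it gave 24 in place of 20, and 28 in place of 26 against the other mutants. In R377C 3 were called with no filter and 3 on the TPM scale. In H455R 9 were called with quantile normalization and 8 with DESeq2, and between R377C and R377H 14 with quantile normalization. A fit of edgeR over all 24 libraries called 12 of the 35 genes and 7573 of all genes between untreated and WT ID cells. The cause of these differences was not tested.

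Of 139 calls on the genes given in every library, edgeR, DESeq2 and the larger pseudocount ended 0 and the replicate block 2. Quantile normalization ended 4, TPM 19, local centring 20 and no filter 24. Many of these calls ended in at least 1 fit with 1 library left out, as given with the genes above. Local centring reversed 3: Trp53 in K365T (−0.010), Phlda3 in K365T (−0.0019) and Zmat3 in R448Q (−0.23). Replicate numbers did not pair the libraries across all groups: of 55 pairs of groups 10 had correlated deviations above 0.1, with a median of 0.02. The correlations ran from −0.25 to 0.38, so pairing between some groups was not excluded. With the replicate block the counts were 21 in WT IAA, 20 in R339Q, 22 in R342C, 13 in S354F, 12 in K365T, 7 in H455R, 20 in R448Q, 13 in Q418R, 5 in R377C and 11 in R377H. With 2 libraries a group, small differences could not be resolved.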
